A study of Mus musculus with 27 samples.

Results

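NMuMG is an epithelial cell line from the normal mammary gland of the mouse. Parental NMuMG cells, which carry no shRNA, were compared after 24 h of TGF-β with the same cells left untreated. The comparison rests on 4 of the 27 samples of the study, which are 2 RNA-seq libraries of untreated cells and 2 libraries of cells treated for 24 h. According to the sample labels, TGF-β was given at 1 to 5 ng/ml, and the study's methods describe the 2 libraries of a time point as biological replicates. The 2 libraries of parental cells treated for 8 h entered the same fit, where they help to estimate the spread, and their values are shown beside the others. The deposited table gives FPKM (fragments scaled to transcript length and to the size of the library, a level per length) for 23295 gene symbols. Of these, 11309 reached 1 FPKM in 2 or more of the 6 parental columns and were tested. Differences are given on the log2(FPKM + 1) scale as 24 h minus untreated with the standard error (SE) of the limma fit, so that 1 is a doubling for a well expressed gene and an understatement for a gene near 0. A gene was called when its adjusted p (limma, Benjamini-Hochberg over the 11309 genes) was under 0.05, and is counted as changed at least 2-fold when its difference was also at least 1 in size.

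During an epithelial-to-mesenchymal transition (EMT), cells that are joined in a sheet by adherens and tight junctions lose their apical and basal sides, take on a spindle shape and move as single cells. TGF-β binds a pair of receptor kinases that phosphorylate SMAD proteins, and these enter the nucleus and act with other factors on target genes. In many epithelia the pathway also holds cells in G1, and it raises the production of extracellular matrix. The transcription factors of the SNAIL and ZEB families repress the gene of E-cadherin and are widely used as signs of the transition.

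All libraries were alike in their overall values. The median FPKM of the tested genes lay between 12.2 and 12.9 in the 6 columns, and columns of the same time point correlated with r from 0.981 to 0.9896 over the tested genes. FPKM carries no read counts, so the number of reads behind a value is not known. Among the markers of luminal mammary epithelium, Krt8 and Krt18 stood between 1719.7 and 2599 FPKM in all columns, whereas the epithelial adhesion gene Epcam had 0.383 and 0.319 FPKM in untreated columns, 0.911 and 1.17 at 8 h and 0.179 and 0.171 at 24 h, and Cldn3 was at or near 0. Of the 8 markers of fibroblasts, 4 stayed under 1 FPKM in every column, among them Thy1 and Pdgfra, and their summed level was 8.58 and 7.87 FPKM in untreated columns and 17.4 and 16.7 at 24 h. Most of that rise lay in Col1a1 (2.37 and 2.12, then 8.57 and 8.11 FPKM), and Pdgfrb went from 0.210 and 0.175 to 1.83 and 1.78 FPKM. The part of other cells in the results was not tested. The 8 markers of basal cells summed to 8.42 and 8.78 FPKM in untreated columns and to 6.71 and 7.15 at 24 h. The 7 listed markers of macrophages and leukocytes summed to 1.69 and 1.74 FPKM in untreated columns and to 2.86 and 2.85 at 24 h, with Csf1r at 0.0886 and 0.0563 and then 0.844 and 0.864 FPKM, and Ptprc and Cd3e at or near 0. Markers of endothelial cells summed to at most 1.99 and those of adipocytes to at most 0.33 in any column.

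After 24 h of TGF-β, 7975 of the 11309 genes (70.5%) were called, 3781 higher (33.4%) and 4194 lower (37.1%). Most of these differences were small. The median size of a called difference was 0.43, and 4587 called genes (57.5%) differed by less than 0.5. Changes of at least 2-fold were called in 1333 genes (11.8%), of which 597 were higher (5.28%) and 736 lower (6.51%). At least 4-fold changes were called in 117 genes that rose and 120 genes that fell. The median difference over all tested genes was -0.02, and scaling every library to the same median or to the same distribution moved it to -0.01 and 0.01. With the same distribution, 4079 genes were called higher and 3895 lower. The calls of Vim and of the ribosomal protein genes, given below, depended on that scaling. In 30 genes the mean went from under 1 to at least 5 FPKM, and in 39 genes it went from at least 5 to under 1. The 24 h columns lay wholly above the untreated columns in 4665 genes (41.3%) and wholly below in 5074 (44.9%). In the plot of all tested genes, the points far from 0 that were not called are symbols of very short RNAs, since all 16 uncalled genes with a difference of at least 2 in size were microRNA or small nucleolar RNA symbols, whose FPKM varied strongly between libraries of a time point.

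**Figure D1:**
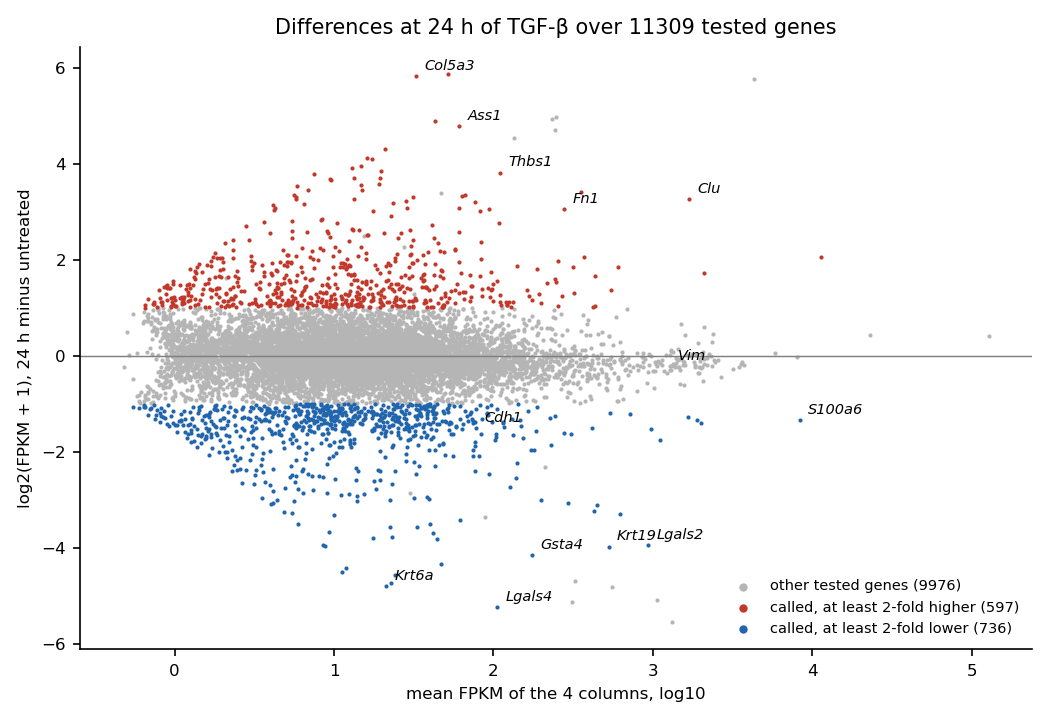
Difference on the log2(FPKM + 1) scale (24 h minus untreated) against the log10 of the mean FPKM of the 4 columns, with 1 point for each of the 11309 tested genes. The 597 genes called at least 2-fold higher are red, the 736 called at least 2-fold lower are blue, and Col5a3 (5.82) and Lgals4 (-5.24) are among the genes farthest from 0.

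The adherens junction gene Cdh1 fell, as did most tested genes of tight junctions and polarity, whereas the epithelial adhesion list moved in both directions. Cdh1 (E-cadherin, chromosome 8, 109127251 to 109194146, plus strand, mm9) had 113 and 119 FPKM in the 2 untreated columns, 86.3 and 92.9 at 8 h and 39.4 and 41.1 at 24 h. Its difference was -1.50 ± 0.050 (SE, limma adjusted p = 9.92e-07), and the columns of the 2 groups did not overlap. Cdh2 (N-cadherin), the cadherin of mesenchymal and neural cells, had 35.0 and 35.2 FPKM in untreated cells and 67.6 and 71.8 at 24 h, a difference of 0.97 ± 0.042 that stayed just under the 2-fold limit. N-cadherin RNA was thus already present before treatment, and at 24 h its level per length exceeded that of E-cadherin in every column. In bulk RNA, fewer cells with a transcript and less transcript per cell cannot be told apart.

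Of 16 tested genes of tight junctions and polarity, 13 were lower and 3 higher (81.25% and 18.75%, against 37.1% and 33.4% of all tested genes). At least 2-fold falls were called in 6 (37.5%, against 6.51%). Their median difference was -0.84, against -0.02 over all tested genes. Llgl2, a polarity protein of the basolateral membrane, went from 15.4 and 14.99 FPKM to 3.396 and 3.50 (-1.86 ± 0.12). Crb3, which marks the apical side, went from 12.2 and 11.2 FPKM to 3.01 and 3.38 (-1.60 ± 0.16), and Cgnl1 (paracingulin, a junction plaque protein) from 51.9 and 56.3 to 25.4 and 26.2 (-1.04 ± 0.094). Cldn4 went the other way: this claudin was near 0 in untreated cells (0.0923 and 0.147 FPKM), had 6.61 and 4.15 FPKM at 8 h and reached 9.19 and 7.69 at 24 h (3.07 ± 0.17).

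Genes of epithelial adhesion were called in shares near those over all tested genes. Among 18 tested, 6 were higher (33.3%, against 33.4%), 7 lower (38.9%, against 37.1%) and 5 not called, with a median of -0.05. Pkp1, a desmosome plaque protein, had 5.00 and 5.50 FPKM in untreated columns, 23.2 and 19.7 at 8 h and 54.3 and 49.7 at 24 h (3.09 ± 0.086). The nectins Pvrl1 and Pvrl3, adhesion receptors of adherens junctions, also rose, Pvrl1 from 1.34 and 1.31 to 7.19 and 6.20 FPKM (1.72 ± 0.092) and Pvrl3 from 13.5 and 13.6 to 39.0 and 37.0 (1.42 ± 0.066). The keratins, which form the intermediate filaments of epithelia, had 4 of 11 tested members higher (36.4%), 3 lower (27.3%) and 4 not called, near the shares over all tested genes (33.4% and 37.1%). Krt19 had 1005 and 982 FPKM in untreated columns, 363 and 501 at 8 h and 55.5 and 69.1 at 24 h (-3.98 ± 0.15). Krt6a dropped from 41.6 and 42.4 FPKM to 0.472 and 0.618 (-4.80 ± 0.067) and its close relative Krt6b from 8.02 and 8.38 to 0.0878 and 0.114 (-3.06 ± 0.065), 2 genes that may share reads. The pair of simple epithelia did not fall. Krt8 had 2031 and 2024 FPKM in untreated columns and 2154 and 2108 at 24 h and was not called, and Krt18 rose slightly, from 1776 and 1719.7 to 2068 and 2108 FPKM (0.26 ± 0.051). Krt16, a keratin of activated epidermis, rose from 0.743 and 0.915 to 5.16 and 5.46 FPKM (1.79 ± 0.16).

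**Figure D2:**
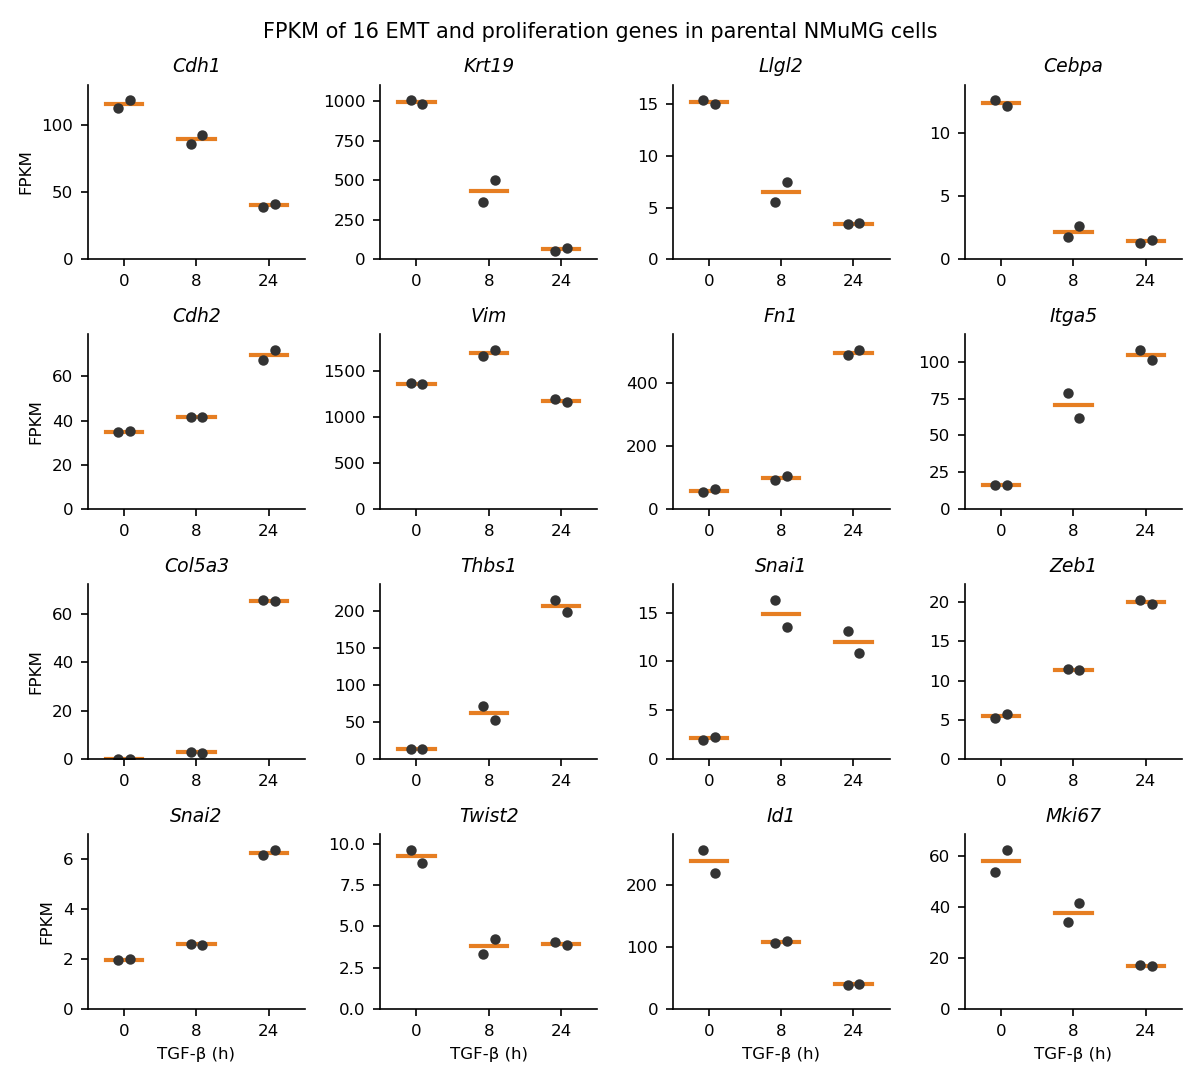
FPKM (linear axes that start at 0) of 16 genes in the parental columns at 0, 8 and 24 h of TGF-β, where points are single columns and orange bars their means. Cdh1, Krt19, Llgl2, Cebpa, Id1 and Mki67 stood lower at 24 h than untreated, Fn1, Itga5, Col5a3, Thbs1, Snai1, Zeb1, Snai2 and Cdh2 stood higher, and Vim and Twist2 stood below their untreated level, where the call of Vim is lost with quantile normalization.

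Transcription factors of the epithelial state and of EMT moved in opposite directions. Of 10 tested epithelial factors, 8 fell (80%, against 37.1% of all tested genes), none rose and 3 fell at least 2-fold (median -0.66). Cebpa had 12.5 and 12.1 FPKM in untreated columns, 1.77 and 2.62 at 8 h and 1.33 and 1.504 at 24 h (-2.46 ± 0.12). The ETS factor Ehf went from 22.5 and 24.6 to 3.65 and 3.998 FPKM (-2.35 ± 0.11), Klf5 from 32.7 and 30.8 to 7.42 and 7.22 (-1.98 ± 0.091) and Elf3 from 43.6 and 42.1 to 21.96 and 22.7 (-0.91 ± 0.048). The other 10 factors on the list did not reach the filter on low values, among them Grhl2, Ovol1 and Ovol2.

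Of 14 tested EMT factors, 11 rose, 2 fell and 1 was not called, with 4 at least 2-fold higher. These are 78.6% higher and 14.3% lower, against 33.4% and 37.1% of all tested genes. Snai1 (chromosome 2, 167363695 to 167368314, plus strand, mm9) had 1.93 and 2.29 FPKM in untreated columns, 16.3 and 13.5 at 8 h and 13.1 and 10.9 at 24 h (2.06 ± 0.12). Zeb1 had 5.24 and 5.79 FPKM in untreated columns, 11.5 and 11.3 at 8 h and 20.2 and 19.8 at 24 h (1.69 ± 0.056), the highest level of the 4 factors at that time. Snai1 was already high at 8 h, whereas Zeb2 (1.92 and 2.03 FPKM untreated, then 2.92 and 3.05 and finally 7.15 and 6.59) and Snai2 (1.97 and 1.997, then 2.61 and 2.57 and finally 6.15 and 6.36) had most of their gain after 8 h. Their differences were 1.40 ± 0.065 and 1.28 ± 0.057. The Twist genes did not share this pattern. Twist1 had 1.42 and 1.41 FPKM in untreated columns and 1.31 and 1.26 at 24 h and was not called (-0.080 ± 0.12), and Twist2 fell from 9.62 and 8.86 to 4.04 and 3.89 FPKM (-1.04 ± 0.095).

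Splicing regulators linked to EMT mostly differed by less than 2-fold. Of 15 tested, 2 rose (13.3%, against 33.4% of all tested genes) and 9 fell (60%, against 37.1%). A fall of at least 2-fold was called in 1 of them, and the list median was -0.14. Rbm47, an RNA-binding protein of epithelial cells, went from 16.6 and 16.8 FPKM to 3.06 and 3.24 (-2.09 ± 0.14), and Esrp2, which keeps epithelial splice forms, from 12.3 and 13.7 to 8.09 and 8.31 (-0.60 ± 0.059). Rbfox2 and Qk, which favour mesenchymal splice forms, rose from 18.3 and 20.003 to 39.4 and 38.3 FPKM (0.99 ± 0.056) and from 33.4 and 36.0 to 58.9 and 55.0 (0.70 ± 0.059). On a list of solute carriers, mucins and related epithelial genes, 6 of 8 tested were lower, 5 of them at least 2-fold, and 2 higher (median -1.53). These are 75% lower and 25% higher, against 37.1% and 33.4% of all tested genes. A further 21 genes of that list were not tested. The mucin Muc1 went from 23.4 and 22.1 FPKM to 2.30 and 2.13 (-2.88 ± 0.15), carbonic anhydrase Car2 from 22.5 and 19.9 to 4.69 and 5.88 (-1.82 ± 0.16), the protease inhibitor Spint2 from 165 and 153 to 48.0 and 48.4 (-1.70 ± 0.056) and the chloride cotransporter Slc12a2 from 93.6 and 106 to 38.3 and 38.6 (-1.35 ± 0.10).

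Among 17 tested mesenchymal markers, 14 rose, 8 of them at least 2-fold, and 3 fell (median 0.97). These are 82.35% higher and 17.65% lower, against 33.4% and 37.1% of all tested genes. Fn1 (fibronectin, chromosome 1, 71632094 to 71699774, minus strand, mm9) had 53.0 and 64.4 FPKM in untreated columns, 92.8 and 107 at 8 h and 486 and 503 at 24 h, a difference of 3.06 ± 0.098 (limma adjusted p = 8.96e-07). Its receptor subunit Itga5 had 16.6 and 16.7 FPKM in untreated columns and 108 and 101 at 24 h (2.58 ± 0.10). The adhesion molecules Ncam1 and Mcam rose from 12.6 and 13.7 to 60.1 and 57.9 FPKM (2.09 ± 0.053) and from 1.02 and 0.813 to 6.53 and 5.72 (1.89 ± 0.089). Vim, the intermediate filament protein most often used as a mesenchymal marker, did not rise: it had 1371 and 1361 FPKM in untreated columns, 1665 and 1728 at 8 h and 1199 and 1164 at 24 h (-0.21 ± 0.045, limma adjusted p = 0.00489). Its call as lower was lost with quantile normalization (-0.011, limma adjusted p = 0.817) and without the second 24 h column (-0.19, limma adjusted p = 0.0546), within a range of adjusted p from 0.00403 to 0.817 over all alternatives. S100a4, a calcium-binding protein also used as a mesenchymal marker, fell from 2502 and 2233 to 945 and 999 FPKM (-1.28 ± 0.066). The third marker that fell was Cdh11, with 5.91 and 6.83 FPKM in untreated columns and 3.97 and 4.17 at 24 h (-0.54 ± 0.078).

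Matrix genes rose, and the collagens held one of the largest changes of the table. No collagen chain of the 17 tested fell, 14 rose (82.35%, against 33.4% of all tested genes) and 7 rose at least 2-fold (median 0.60). Col5a3, a chain of the fibril-regulating type V collagen (chromosome 9, 20574494 to 20619511, minus strand, mm9), had 0.136 and 0.221 FPKM in untreated columns, 3.07 and 2.58 at 8 h and 65.7 and 65.2 at 24 h (5.82 ± 0.077, limma adjusted p = 1.28e-07). Col7a1, which forms the anchoring fibrils under epithelia, had 1.97 and 1.92 FPKM in untreated columns and 36.2 and 38.0 at 24 h (3.69 ± 0.071). Col5a1 rose from 3.91 and 4.47 to 28.2 and 29.1 FPKM (2.52 ± 0.084) and Col12a1 from 3.55 and 4.54 to 17.3 and 18.8 (1.92 ± 0.12). Col1a1, a chain of the type I collagen of bone and tendon, rose from 2.37 and 2.12 to 8.57 and 8.11 FPKM (1.53 ± 0.066), still far below the level of Col5a3.

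Enzymes that process collagen rose along with the chains. Of 19 tested, 15 were higher, 7 of them at least 2-fold, and 1 was lower (median 0.77). These are 78.95% higher and 5.26% lower, against 33.4% and 37.1% of all tested genes. Plod2, which hydroxylates collagen lysines, went from 9.91 and 10.4 FPKM to 74.5 and 70.3 (2.72 ± 0.11), and Lox, which cross-links collagen and elastin, from 1.93 and 1.79 to 17.0 and 15.7 (2.60 ± 0.062). Bmp1, the protease that trims procollagen ends, went from 18.8 and 19.9 to 94.7 and 94.8 FPKM (2.23 ± 0.065). Its 2 enhancer proteins moved in opposite directions, Pcolce2 from 20.8 and 18.8 to 96.6 and 93.4 FPKM (2.21 ± 0.10) and Pcolce from 48.1 and 45.8 to 9.26 and 9.68 (-2.20 ± 0.075).

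Of 31 tested matrix glycoproteins and proteoglycans, 20 rose and 4 fell, with 13 and 2 of them at least 2-fold (median 0.74). These are 64.5% higher and 12.9% lower, against 33.4% and 37.1% of all tested genes. Thbs1 (thrombospondin, which can activate latent TGF-β) had 13.2 and 14.3 FPKM in untreated columns, 72.0 and 52.7 at 8 h and 215 and 199 at 24 h (3.81 ± 0.13). The syndecan Sdc3 rose from 13.5 and 14.9 to 144 and 133 FPKM (3.20 ± 0.11), and the CCN family member Wisp1 from 11.8 and 12.3 to 112 and 107 (3.08 ± 0.12). Has2, an enzyme that makes the matrix polysaccharide hyaluronan, went from 0.497 and 0.504 to 20.02 and 16.5 FPKM (3.68 ± 0.19). Of 26 tested matrix proteases and their inhibitors, 18 rose, 11 of them at least 2-fold, and 6 fell (median 0.76). These are 69.2% higher and 23.1% lower, against 33.4% and 37.1% of all tested genes. The metalloprotease Adam12 rose from 1.63 and 1.70 to 28.8 and 27.6 FPKM (3.45 ± 0.062). The tissue inhibitors of metalloproteases Timp3 and Timp1 rose from 12.4 and 12.4 to 75.01 and 70.1 FPKM (2.46 ± 0.072) and from 60.3 and 59.4 to 224 and 216 (1.86 ± 0.096).

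Laminins and integrins exchanged members without a net shift. Of 18 tested, 8 rose and 8 fell (44.4% each, against 33.4% and 37.1% of all tested genes). In each direction 4 changed at least 2-fold (22.2%, against 5.28% and 6.51%), and the list median was 0.05. Itgb7, an integrin subunit best known from lymphocytes, went from 48.1 and 46.6 FPKM to 1.08 and 0.981 (-4.57 ± 0.096). Itga6, part of the laminin receptors of the basal side, went from 31.4 and 33.1 to 9.25 and 9.53 FPKM (-1.68 ± 0.045) and was at 31.5 and 31.2 at 8 h, still near its untreated level. The collagen receptor subunit Itga1 went from 4.78 and 5.73 to 1.26 and 1.15 FPKM (-1.50 ± 0.083). The fibronectin receptor subunit Itga5, given above, had the largest rise of the 18.

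The TGF-β pathway itself changed at several levels. Of 37 tested ligands, receptors and feedback genes, 25 rose and 6 fell, with 10 and 3 of them at least 2-fold (median 0.53). These are 67.6% higher and 16.2% lower, against 33.4% and 37.1% of all tested genes. Among ligands, Inhba (the subunit of activin A) rose from 10.5 and 11.6 to 126 and 118 FPKM (3.35 ± 0.14), Tgfb1 from 27.6 and 27.0 to 49.9 and 47.8 (0.82 ± 0.042), Tgfb2 from 2.71 and 2.83 to 7.75 and 7.15 (1.16 ± 0.074) and Tgfb3 from 1.00 and 0.984 to 3.86 and 3.19 (1.18 ± 0.10). Ltbp2, a relative of the proteins that store latent TGF-β in the matrix, rose from 0.996 and 1.15 to 8.79 and 8.28 FPKM (2.20 ± 0.065). The receptors differed by less than 2-fold, with Tgfbr1 at 28.9 and 32.6 FPKM in untreated columns and 31.2 and 29.6 at 24 h (not called) while Tgfbr2 rose from 22.7 and 23.4 to 33.1 and 33.3 (0.51 ± 0.053). The inhibitory SMAD gene Smad7 had 4.92 and 5.19 FPKM in untreated columns, 11.9 and 9.64 at 8 h and 11.3 and 10.5 at 24 h (0.97 ± 0.093). Of the Id genes, targets of BMP signalling whose products block bHLH factors, Id1 fell from 257 and 220.4 to 39.3 and 40.7 FPKM (-2.54 ± 0.070) and Id2 from 224 and 218 to 30.2 and 34.6 (-2.73 ± 0.18), while Id3 (86.9 and 73.2 FPKM untreated, 71.4 and 75.4 at 24 h) was not called.

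Genes of the actin cytoskeleton rose widely. Of 38 tested contractile and focal adhesion genes, 30 were higher, 11 of them at least 2-fold, and 3 lower (median 0.63). These are 78.95% higher and 7.9% lower, against 33.4% and 37.1% of all tested genes. Palld, which bundles actin in stress fibres, rose from 5.49 and 5.03 to 36.5 and 34.8 FPKM (2.55 ± 0.073) and the focal adhesion protein Zyx from 25.7 and 26.6 to 149 and 132 (2.38 ± 0.076). Tns1, a link between integrins and actin, rose from 3.96 and 4.32 to 20.01 and 19.8 FPKM (2.02 ± 0.065) and Pdlim7 from 32.5 and 34.5 to 111 and 109 (1.69 ± 0.042). In absolute terms, actin genes and actin regulators made up 3 of the 5 largest gains of FPKM. The monomer-binding protein Tmsb4x went from 973 and 956 to 3232 and 3179 FPKM (1.73 ± 0.082), Actg1 (cytoplasmic actin) from 1678 and 1655 to 2599 and 2479 (0.61 ± 0.053) and the filament-severing Cfl1 from 2017 and 1976 to 2806 and 2689 (0.46 ± 0.050).

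YAP and TAZ are coactivators that respond to tension and cell contact and act through TEAD factors. Of 22 tested factors and targets, 17 rose, 7 of them at least 2-fold, and 2 fell (median 0.60). These are 77.3% higher and 9.09% lower, against 33.4% and 37.1% of all tested genes. The secreted CCN proteins are their best known targets, and Ctgf rose from 27.6 and 26.3 FPKM to 206 and 171 (2.76 ± 0.14) and Cyr61 from 29.4 and 27.96 to 101 and 91.7 (1.71 ± 0.062). The junction scaffold Amotl1 rose from 5.02 and 5.48 to 16.1 and 15.4 FPKM (1.42 ± 0.076) and Tead2 from 22.3 and 21.1 to 57.3 and 57.3 (1.36 ± 0.042). Some of these targets, such as Ctgf, also stand on the matrix list or answer to SMADs directly.

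**Figure D3:**
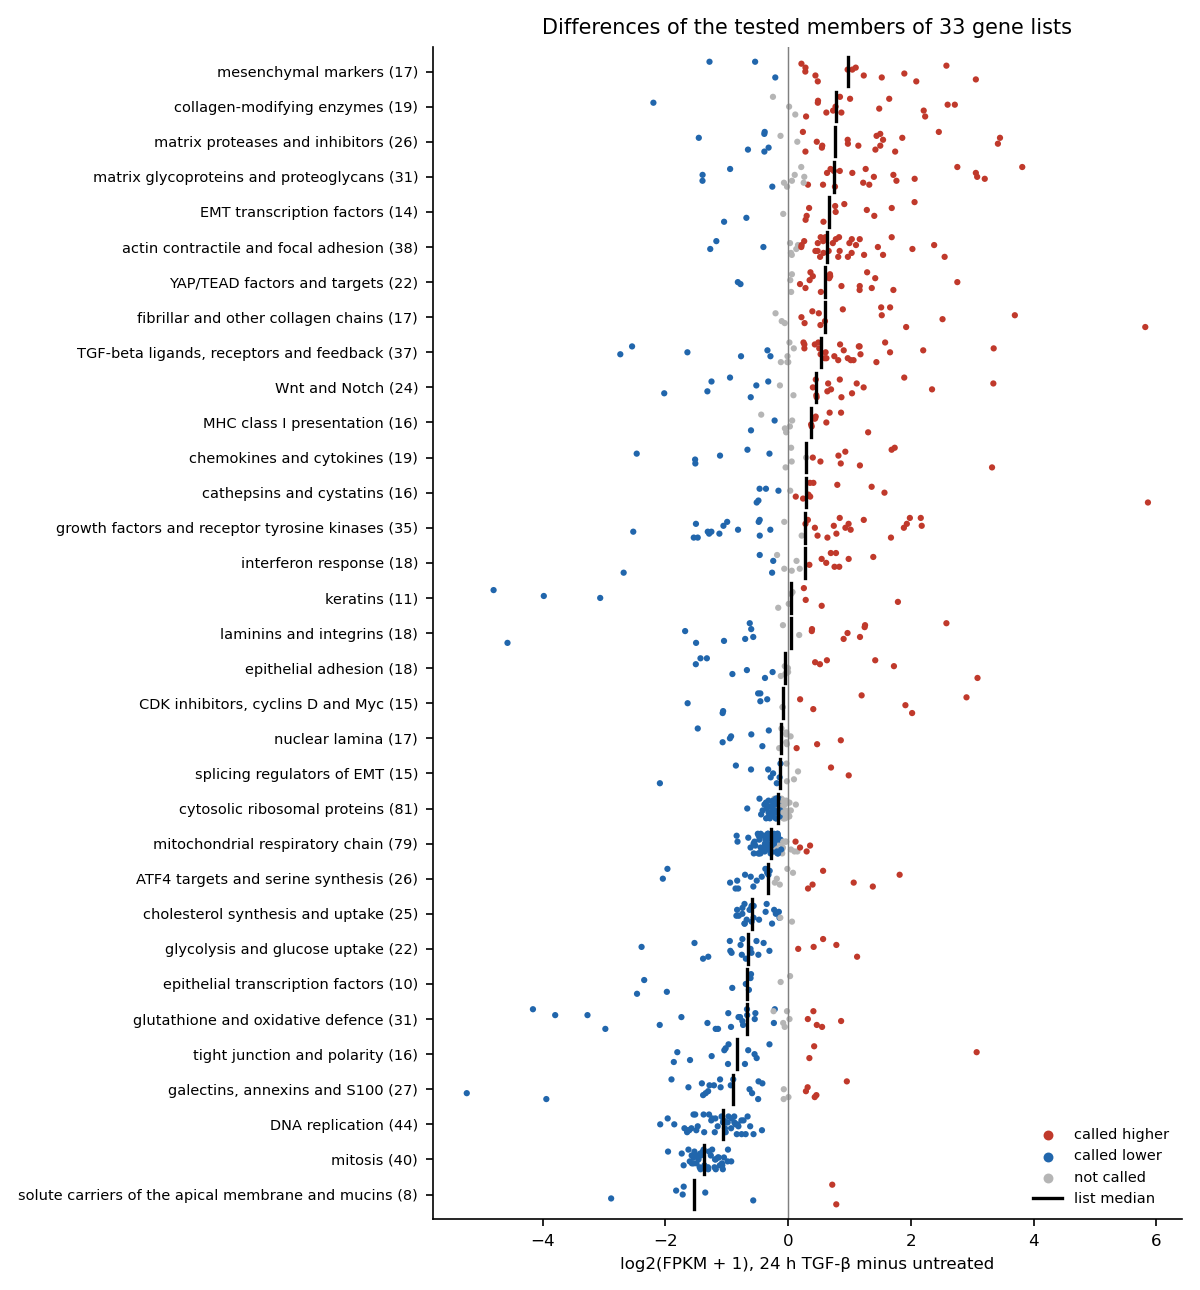
Difference on the log2(FPKM + 1) scale (24 h minus untreated) of every tested member of 33 gene lists, with the number tested in parentheses. Points are genes, red where called higher, blue where called lower and grey where not called. Black bars are list medians, which run from -1.53 for the list of solute carriers and mucins and -1.37 for mitosis to 0.97 for mesenchymal markers.

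Genes of the cell cycle fell without exception on 2 lists. All 44 tested genes of DNA replication were lower, 26 of them at least 2-fold, with a median of -1.06 and a range from -2.09 to -0.43. All 40 tested genes of mitosis were lower, 37 of them at least 2-fold, with a median of -1.37 and a range from -1.96 to -0.93. Over all tested genes, 37.1% were lower and 6.51% at least 2-fold lower. Thymidine kinase Tk1 had 123 and 115 FPKM in untreated columns, 47.4 and 54.4 at 8 h and 31.3 and 28.5 at 24 h (-1.96 ± 0.076), and the helicase subunit Mcm5 had 72.3 and 71.4 untreated, then 35.4 and 38.7, then 20.6 and 17.7 (-1.86 ± 0.075). DNA ligase Lig1 went from 54.4 and 54.2 to 16.2 and 16.1 FPKM (-1.69 ± 0.054) and the primase subunit Prim1 from 49.2 and 48.9 to 15.4 and 14.6 (-1.65 ± 0.042). Of the mitosis genes, Ect2, which directs cytokinesis, had 62.9 and 64.1 FPKM in untreated columns, 32.7 and 37.3 at 8 h and 16.1 and 15.1 at 24 h (-1.96 ± 0.066). The spindle motor Kif11 went from 62.5 and 62.5 to 18.9 and 17.3 FPKM (-1.73 ± 0.052), the proliferation marker Mki67 from 53.7 and 62.4 to 17.3 and 16.9 (-1.70 ± 0.10) and the chromosomal passenger Birc5 from 130.4 and 121 to 42.2 and 38.1 (-1.62 ± 0.059).

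Cell cycle genes are known to be shut off together through short promoter elements, and 4 promoters are shown because their genes fell at least 2-fold and their sequences hold such letters. Replication genes are known for E2F sites and mitosis genes for the cell cycle homology region (CHR), to which the DREAM repressor complex binds. Sequences are from RefSeq on GRCm38.p6, 5′ to 3′ on the strand of the gene, from 250 bases before to 50 bases after an annotated start. The windows are chr3:27153829-27154128 on the minus strand for Ect2, chr19:37376132-37376431 on the plus strand for Kif11, chr7:135716330-135716629 on the minus strand for Mki67 and chr8:75109259-75109558 on the plus strand for Mcm5. Capitals mark CHR letters (TTTGAA on either strand) in Ect2, Kif11 and Mki67 and the overlapping pair of E2F letters (TTTNNCGC on either strand) in Mcm5.
Ect2: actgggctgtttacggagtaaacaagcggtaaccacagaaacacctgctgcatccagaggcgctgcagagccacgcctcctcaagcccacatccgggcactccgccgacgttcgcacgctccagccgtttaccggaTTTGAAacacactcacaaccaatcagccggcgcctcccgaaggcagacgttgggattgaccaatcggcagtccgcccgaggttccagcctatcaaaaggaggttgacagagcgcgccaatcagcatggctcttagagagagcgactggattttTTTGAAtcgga
Kif11: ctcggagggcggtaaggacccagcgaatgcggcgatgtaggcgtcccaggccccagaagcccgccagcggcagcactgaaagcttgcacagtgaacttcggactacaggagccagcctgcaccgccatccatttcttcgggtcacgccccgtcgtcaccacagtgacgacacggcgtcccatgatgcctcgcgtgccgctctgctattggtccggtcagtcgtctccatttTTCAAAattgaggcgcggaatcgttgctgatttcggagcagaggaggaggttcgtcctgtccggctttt
Mki67: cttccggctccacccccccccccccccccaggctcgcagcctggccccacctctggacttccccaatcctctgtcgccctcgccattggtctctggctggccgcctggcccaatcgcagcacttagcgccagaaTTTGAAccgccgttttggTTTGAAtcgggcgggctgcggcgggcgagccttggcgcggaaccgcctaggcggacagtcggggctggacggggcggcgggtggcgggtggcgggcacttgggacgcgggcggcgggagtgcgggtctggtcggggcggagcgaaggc
Mcm5: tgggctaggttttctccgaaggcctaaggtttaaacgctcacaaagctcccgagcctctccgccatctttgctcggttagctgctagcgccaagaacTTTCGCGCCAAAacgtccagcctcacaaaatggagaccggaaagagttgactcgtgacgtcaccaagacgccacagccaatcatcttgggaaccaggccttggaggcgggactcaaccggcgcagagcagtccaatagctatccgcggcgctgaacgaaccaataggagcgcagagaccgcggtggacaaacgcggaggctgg
The CHR letters began 114 bases before the start and at base 40 counted from it in Ect2, 19 bases before the start in Kif11 and 98 and 116 bases before it in Mki67, and the E2F letters began 153 and 149 bases before it in Mcm5. In the same window Birc5 had no CHR match, and Tk1, Lig1 and Prim1 had no E2F match.

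Over the genes with a listed promoter (the first listed start of each gene), CHR letters were in 23 of 32 mitosis promoters (71.9%) and in 4 of 35 replication promoters (11.4%). E2F letters were in 14 of 35 replication promoters (40.0%) and in 1 of 32 mitosis promoters (3.13%). Of all 9037 tested genes with a listed promoter, 11.9% held the CHR letters and 9.10% the E2F letters. The CCAAT letters that often accompany both elements were in 71.9% of mitosis promoters, 62.9% of replication promoters and 39.7% of all. Over every listed start of the same genes, the CHR share was 73.5% for mitosis and 12.1% for all, and the E2F share was 36.6% for replication and 8.63% for all. In the promoters of genes that rose at least 2-fold, the CHR letters were in 6.73%, and in those of genes that fell at least 2-fold in 22.9%. A match to these letters is a description of the sequence and does not show binding.

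Inhibitors and drivers of the cycle did not all move one way. Of 15 tested CDK inhibitors, cyclins D and related genes, 6 rose (40.0%, against 33.4% of all tested genes) and 7 fell (46.7%, against 37.1%). Their median difference was -0.09. The stress genes Gadd45a, Gadd45g and Gadd45b, which slow the cycle, all rose. Gadd45a went from 4.94 and 4.34 FPKM to 42.2 and 40.2 (2.91 ± 0.18), Gadd45g from 32.8 and 32.1 to 136 and 133 (2.02 ± 0.088) and Gadd45b from 15.5 and 14.7 to 58.4 and 60.5 (1.91 ± 0.12). The CDK inhibitor Cdkn2b (p15), a known TGF-β target, rose from 27.7 and 28.5 to 64.4 and 67.0 FPKM (1.20 ± 0.040), while Cdkn1a (p21) fell from 91.0 and 84.0 to 63.1 and 60.9 (-0.49 ± 0.053) and Cdkn2c (p18) from 19.5 and 18.9 to 5.55 and 5.43 (-1.64 ± 0.066). Cyclin D1 (Ccnd1) fell from 254 and 257 to 125 and 117 FPKM (-1.07 ± 0.056), and Myc (29.2 and 29.0 FPKM untreated, 28.6 and 26.1 at 24 h) was not called.

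Signals that cells send to one another were exchanged. Of 35 tested growth factors and receptor tyrosine kinases, 18 rose (51.4%, against 33.4% of all tested genes) and 15 fell (42.9%, against 37.1%). At least 2-fold changes were called in 8 and 9 of them, and the list median was 0.28. The PDGF ligands Pdgfb and Pdgfa rose from 16.8 and 15.3 to 81.9 and 70.3 FPKM (2.18 ± 0.15) and from 17.0 and 17.5 to 82.4 and 78.6 (2.16 ± 0.078), and the receptor Fgfr1 from 0.634 and 0.614 to 5.81 and 5.05 (1.98 ± 0.087). Fgf1 fell from 14.9 and 15.7 to 1.77 and 1.89 FPKM (-2.52 ± 0.071). Among the ligands of the EGF receptor family, Areg fell from 63.5 and 58.6 to 20.3 and 20.4 FPKM (-1.54 ± 0.048), and the receptor gene Erbb3 fell from 2.90 and 3.29 to 0.453 and 0.491 (-1.47 ± 0.090). Of 19 tested chemokines and cytokines, 9 rose (47.4%, against 33.4% of all tested genes) and 6 fell (31.6%, against 37.1%). In each direction 4 changed at least 2-fold, and the list median was 0.29. Il11, a cytokine of fibrosis, had 10.6 and 10.7 FPKM in untreated columns, 34.5 and 30.8 at 8 h and 125 and 106 at 24 h (3.32 ± 0.083). The monocyte attractant Ccl7 and the cytokine Lif rose from 44.1 and 43.7 to 145 and 152 FPKM (1.74 ± 0.066) and from 5.77 and 5.75 to 22.6 and 19.1 (1.69 ± 0.089), and Ccl20, an attractant of epithelial barriers, fell from 53.2 and 58.6 to 8.53 and 10.1 (-2.47 ± 0.31).

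Of 24 tested genes of the Wnt and Notch pathways, 15 rose and 7 fell, with 6 and 3 of them at least 2-fold (median 0.46). These are 62.5% higher and 29.2% lower, against 33.4% and 37.1% of all tested genes. Wnt9a, a Wnt ligand, was near 0 in untreated columns (0.218 and 0.142 FPKM), at 1.14 and 0.651 FPKM at 8 h and at 12.1 and 9.94 at 24 h (3.34 ± 0.14). The Wnt receptor Fzd2 rose from 4.88 and 4.49 to 20.3 and 19.9 FPKM (1.89 ± 0.055). In the Notch pathway the ligand Jag1 rose from 13.3 and 14.8 to 76.7 and 73.8 FPKM (2.34 ± 0.11) and the receptor Notch1 fell from 5.94 and 6.68 to 0.731 and 0.875 (-2.02 ± 0.12).

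Metabolic genes were lower on several lists. None of 25 tested genes of cholesterol synthesis and uptake rose and 23 fell (92%, against 37.1% of all tested genes), though none by 2-fold. Their median difference was -0.60. Insig1, the sterol-dependent brake of the pathway, had 30.4 and 29.7 FPKM in untreated columns, 53.0 and 45.6 at 8 h and 16.5 and 16.1 at 24 h (-0.84 ± 0.069). A like course was seen in Sc4mol, a demethylase of the pathway, with 94.96 and 91.1 FPKM untreated, then 129.5 and 123, then 53.3 and 56.9 (-0.75 ± 0.049). The cyclase Lss fell from 23.9 and 22.8 to 12.7 and 12.7 FPKM (-0.83 ± 0.044) and the regulator Srebf1 from 38.4 and 36.4 to 20.8 and 21.1 (-0.80 ± 0.043). Of 22 tested genes of glycolysis and glucose uptake, 17 fell, 4 of them at least 2-fold, and 5 rose (median -0.65). These are 77.3% lower and 22.7% higher, against 37.1% and 33.4% of all tested genes. Lactate dehydrogenase Ldha went from 1471 and 1428 FPKM to 503 and 502 (-1.53 ± 0.042), Pdk1, which holds pyruvate back from mitochondria, from 9.21 and 9.73 to 3.07 and 2.94 (-1.39 ± 0.055) and the lactate carrier Slc16a1 from 34.4 and 37.5 to 13.9 and 14.1 (-1.30 ± 0.057). Hexokinase Hk2 rose from 6.68 and 7.28 to 16.4 and 16.3 FPKM (1.12 ± 0.062).

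Of 26 tested ATF4 targets and genes of serine synthesis, 15 fell (57.7%, against 37.1% of all tested genes) and 6 rose (23.1%, against 33.4%). Their median difference was -0.33. The serine and folate enzymes Psat1 and Shmt1 fell from 280.2 and 273 to 70.9 and 69.0 FPKM (-1.97 ± 0.051) and from 47.6 and 45.2 to 10.8 and 10.2 (-2.04 ± 0.071), whereas the stress genes Nupr1 and Ddit4 rose from 84.9 and 80.0 to 291 and 295 (1.82 ± 0.045) and from 54.6 and 52.5 to 143 and 139 (1.38 ± 0.083). Of 31 tested genes of glutathione use and oxidative defence, 21 fell, 9 of them at least 2-fold, and 5 rose, none by 2-fold (median -0.67). These are 67.7% lower and 16.1% higher, against 37.1% and 33.4% of all tested genes. The glutathione transferase Gsta4 had 326 and 335 FPKM in untreated columns, 112 and 123 at 8 h and 16.7 and 18.4 at 24 h (-4.16 ± 0.061). Its relative Gsta1 fell from 10.9 and 10.5 to 0.356 and 0.0884 FPKM (-3.27 ± 0.11), a value that near-identical copies of the gene make uncertain. The aldehyde dehydrogenases Aldh3a1 and Aldh1a1 fell from 32.99 and 34.2 to 1.21 and 1.81 FPKM (-3.80 ± 0.14) and from 71.1 and 71.1 to 7.74 and 8.58 (-2.98 ± 0.083). Outside the lists, the iron store Fth1 (ferritin heavy chain) fell from 2769 and 2649.6 to 1066 and 1071 FPKM (-1.34 ± 0.057).

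Genes of protein synthesis and respiration shifted by small steps. Of 81 tested cytosolic ribosomal protein genes, 47 were lower (58.0%, against 37.1% of all tested genes), none higher and none changed 2-fold (median -0.17). This count rested on the scaling and on single columns. With quantile normalization 16 of the ribosomal protein genes were higher and 16 lower (median -0.0013), and 21 to 56 were lower when a column was left out (28 without the first untreated column, 21 without the first and 28 without the second 24 h column). Rpl26 went from 449 and 405 FPKM to 258 and 279 (-0.67 ± 0.066), Rps27l from 550.2 and 487 to 385 and 363 (-0.47 ± 0.082), Rps2 from 3208 and 2992 to 2295 and 2272 (-0.44 ± 0.062) and Rpl36al from 469.8 and 442 to 339 and 344 (-0.42 ± 0.046). Counts of ribosomal protein genes can include reads of their processed pseudogenes. Of 79 tested genes of the mitochondrial respiratory chain, 63 were lower and 4 higher, none by 2-fold (median -0.29). These are 79.75% lower and 5.06% higher, against 37.1% and 33.4% of all tested genes. The complex I subunits Ndufa5 and Ndufa1 went from 87.7 and 82.2 to 44.6 and 49.6 FPKM (-0.84 ± 0.070) and from 122 and 116 to 75.02 and 76.1 (-0.65 ± 0.039), Sdhd of complex II from 208 and 198 to 114 and 115 (-0.82 ± 0.042) and Cox7a1 of complex IV from 15.8 and 17.5 to 12.004 and 9.19 (-0.61 ± 0.11).

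Of 17 tested genes of the nuclear lamina and envelope, 7 fell (41.2%, against 37.1% of all tested genes), 3 rose (17.6%, against 33.4%) and 7 were not called (median -0.11). Lmnb1 (lamin B1, the protein whose binding the wider study mapped) had 36.9 and 36.3 FPKM in untreated columns, 34.1 and 34.4 at 8 h and 19.5 and 17.6 at 24 h (-0.95 ± 0.053). The lamin B receptor Lbr went from 29.0 and 29.1 to 10.5 and 9.21 FPKM (-1.47 ± 0.068) and the lamina-associated Tmpo from 122 and 121 to 64.2 and 62.5 (-0.93 ± 0.035), while Sun2, which links the lamina to the cytoskeleton, rose from 14.2 and 13.3 to 26.7 and 24.8 (0.86 ± 0.055).

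Galectins, annexins and S100 proteins held the largest fall in absolute level. Of 27 tested, 19 fell, 12 of them at least 2-fold, and 5 rose, none by 2-fold (median -0.89). These are 70.4% lower and 18.5% higher, against 37.1% and 33.4% of all tested genes. The galectin gene Lgals4, known from the lining of the gut, had 210.3 and 204 FPKM untreated, then 147 and 169, then 4.18 and 4.87. Its relative Lgals2 had 1831 and 1687 FPKM untreated, then 1410.0 and 1473, then 112 and 115. Both still held most of their untreated level at 8 h, and their differences at 24 h were -5.24 ± 0.082 and -3.94 ± 0.052. S100a6 lost more FPKM than any other called gene, from 12492 and 11501 to 4305 and 5181 (-1.34 ± 0.10). Anxa4 went from 465 and 460.4 to 147 and 152 FPKM (-1.62 ± 0.048), S100a13 from 170.4 and 165 to 58.1 and 67.4 (-1.41 ± 0.067) and Anxa10 from 45.5 and 44.7 to 0.641 and 0.819 (-4.74 ± 0.071). Osteopontin (Spp1), a secreted phosphoprotein of the matrix list, went from 2858 and 2930.4 to 1085 and 1114 FPKM (-1.40 ± 0.097).

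Cathepsins, antigen presentation and interferon genes completed the lists. Of 16 tested cathepsins, cystatins and lysosomal genes, 10 rose, 3 of them at least 2-fold, and 5 fell (median 0.29). These are 62.5% higher and 31.25% lower, against 33.4% and 37.1% of all tested genes. Ctsw, a cysteine protease known from cytotoxic lymphocytes, had 0.811 and 0.751 FPKM in untreated columns, 34.5 and 26.9 at 8 h and 105 and 101 at 24 h, the largest rise of the named genes (5.86 ± 0.10). The summed markers of leukocytes, given above, also stood higher at 24 h, and their part in this rise was not tested. The lysosomal proteases Ctsl and Ctsf rose from 311 and 299 to 777 and 791 FPKM (1.36 ± 0.041) and from 2.34 and 1.94 to 8.02 and 8.59 (1.57 ± 0.085), and Ctse from 14.1 and 16.8 to 27.1 and 28.1 (0.80 ± 0.12). Of 16 tested genes of MHC class I presentation, 9 rose (56.25%, against 33.4% of all tested genes) and 2 fell (12.5%, against 37.1%). Their median difference was 0.38. The light chain B2m rose from 184 and 184 to 459.8 and 451 FPKM (1.30 ± 0.035), the peptide loading factor Tapbp from 27.5 and 28.3 to 51.0 and 52.2 (0.86 ± 0.039) and the peptidase Erap1 from 9.60 and 10.4 to 16.3 and 17.0 (0.68 ± 0.055), whereas H2-Q4, one of several near-identical class I genes, went from 12.5 and 12.4 to 7.73 and 7.98 (-0.61 ± 0.058). Of 18 tested interferon response genes, 9 rose (50%, against 33.4% of all tested genes) and 4 fell (22.2%, against 37.1%), with a median of 0.27. In each direction 1 changed at least 2-fold (5.56%, near the 5.28% and 6.51% of all tested genes). The antiviral GTPase Mx1 fell from 6.03 and 6.29 to 0.0788 and 0.156 FPKM (-2.68 ± 0.092), while the GTPase Irgm1 rose from 22.8 and 23.4 to 62.0 and 62.0 (1.39 ± 0.039), Parp9 from 7.36 and 8.11 to 13.6 and 14.4 (0.78 ± 0.060) and its partner Dtx3l from 3.97 and 3.92 to 7.37 and 7.33 (0.76 ± 0.056).

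Among the 15 largest rises, genes outside the lists included several that are better known from other tissues. The late cornified envelope genes Lce1g, Lce1b, Lce1a2 and Lce1f, which belong to the outer layer of the skin, lie in a family of near-identical copies whose reads cannot be told apart with certainty. Lce1g had 2.08 and 1.66 FPKM in untreated columns and 90.4 and 77.5 at 24 h (4.89 ± 0.15), and the other three differed by 4.11 ± 0.22, 3.91 ± 0.092 and 3.78 ± 0.21 in that order. Ass1, which makes argininosuccinate for arginine synthesis, rose from 3.45 and 3.28 to 121 and 117 FPKM (4.78 ± 0.17), and the predicted gene Gm5424 from 1.04 and 1.03 to 34.0 and 33.6 (4.09 ± 0.13), which may share reads with Ass1. Creb3l1, a factor bound to the endoplasmic reticulum that is known to act on collagen genes, rose from 1.56 and 1.802 to 38.1 and 37.2 FPKM (3.85 ± 0.062). The R-spondin receptor Lgr6 rose from 0.917 and 0.915 to 29.9 and 27.1 FPKM (3.94 ± 0.11), the adhesion receptor Gpr123 from 0.992 and 1.09 to 26.7 and 24.5 (3.70 ± 0.15) and the predicted gene Gm1045 from 0.9749 and 1.24 to 43.3 and 37.7 (4.30 ± 0.14). By absolute level, clusterin (Clu), a secreted chaperone, gained most, with 313 and 324 FPKM in untreated columns, 1014 and 869.9 at 8 h and 3181 and 2974 at 24 h (3.27 ± 0.077). Igfbp7, a secreted protein that binds insulin-like growth factors, went from 274 and 255 to 953 and 949 FPKM (1.85 ± 0.056).

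Among the 15 largest falls, the genes outside the lists were mostly enzymes and secreted or surface proteins. Ckmt1, the creatine kinase of mitochondria, went from 22.3 and 22.6 FPKM to 0.0555 and 0.0209 (-4.50 ± 0.094), and the aldo-keto reductase Akr1c19 from 90.3 and 91.0 to 3.15 and 3.88 (-4.35 ± 0.24). Sptssb, a subunit of the enzyme that starts sphingolipid synthesis, went from 17.2 and 17.8 to 0.215 and 0.149 FPKM (-3.97 ± 0.20), and Apoc2, a cofactor of lipoprotein lipase, from 17.2 and 16.6 to 0.248 and 0.0683 (-3.96 ± 0.098). The surface protein Vsig1 went from 82.8 and 83.8 to 4.59 and 5.35 FPKM (-3.82 ± 0.080), lipocalin Lcn2, which binds bacterial iron carriers, from 44.0 and 44.0 to 2.41 and 2.19 (-3.77 ± 0.16), and Smim6 from 25.6 and 21.9 to 0.101 and 0.188 (-4.43 ± 0.16). Of all 163 named genes, 162 were called, 84 higher and 78 lower, with limma adjusted p between 1.28e-07 and 0.00489, and in none of these 162 did the 24 h columns overlap with the untreated columns. Most named genes were chosen by the size of their difference or by their call, so these counts were largely fixed by the choice. Over all tested genes 70.5% were called, and the 24 h columns lay wholly above in 41.3% and wholly below in 44.9%.

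The same treatment was given to NMuMG cells that carry a control shRNA, which gives another set of cells. Their 2 untreated and 2 24 h libraries stand in another table that was normalized separately, so the values are shown side by side and no test was made between the tables. In the control shRNA cells 8093 of 11450 tested genes (70.7%) were called, 2924 higher (25.5%) and 5169 lower (45.1%). Their median difference over all genes was -0.13, and with quantile normalization it was -0.0035 and the share of higher genes among those called was 49.99% in place of 36.1%. Of the 577 genes that rose at least 2-fold in parental cells and were tested in both tables, 440 (76.3%) also rose at least 2-fold in control shRNA cells, which is 69.1% of the 637 that did so there. Among control shRNA cells 5.95% of all tested genes rose at least 2-fold. Of the 703 parental genes that fell at least 2-fold, 624 (88.8%) did so in control shRNA cells as well, which is 65.5% of 952, and 8.64% of all genes there fell at least 2-fold. A single gene, Foxj1, a factor of cilia named after its values were seen, was called at least 2-fold higher in parental cells (3.11 and 3.27 FPKM in untreated columns, 9.50 and 10.1 at 24 h) and lower in control shRNA cells (9.18 and 5.01, then 3.64 and 3.58 FPKM).

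Of the 163 named genes, 159 were tested in both tables, 154 were called in the same direction and none was called in opposite directions. Most of them were chosen by their parental difference, so this count does not describe the response of all genes. Over all tested genes of control shRNA cells, 25.5% were called higher and 45.1% lower. Some genes had larger differences in control shRNA cells, among them Il11 (6.78 against 3.32 in parental cells) and Krt19 (-5.66 against -3.98). Others had smaller ones, such as Ckmt1 (-2.29 against -4.50) and Clu (1.93 against 3.27). The 5 genes called in parental cells only were Krt16, H2-Q4, Insig1, Cox7a1 and Vim, with differences of -0.029, -0.29, 0.085, -0.35 and 0.14 in control shRNA cells. Whether the response differs between the 2 sets of cells was not tested for any of them. All mitosis genes (40 of 40) and replication genes (44 of 44) were called lower in control shRNA cells too. The cholesterol list did not repeat its pattern to the same extent, with 13 of 24 tested genes lower and 4 higher there.

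**Figure D4:**
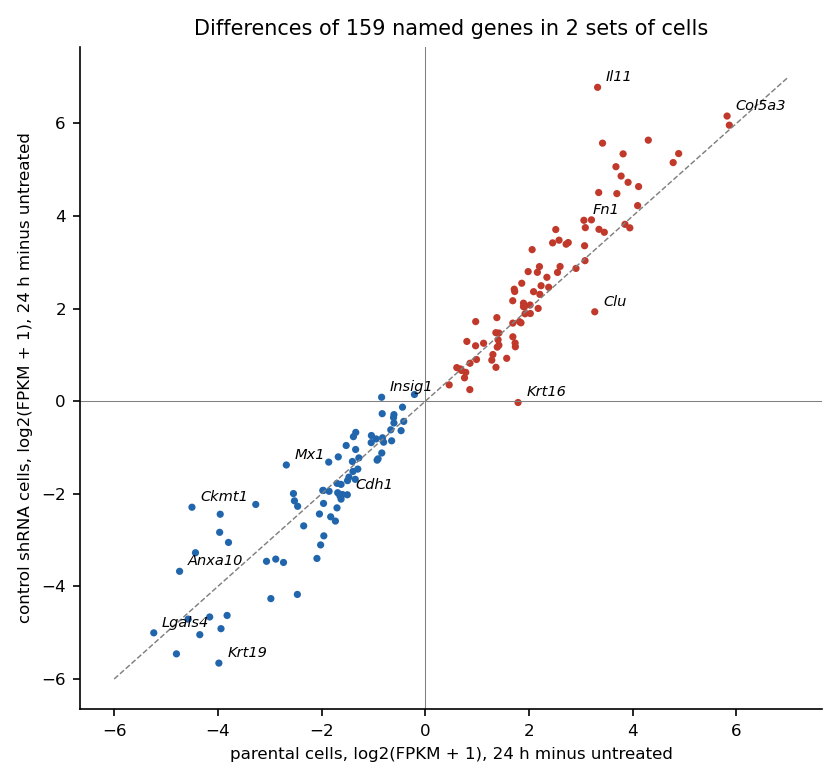
Difference on the log2(FPKM + 1) scale (24 h minus untreated) of the 159 named genes tested in both tables, parental cells on the x axis and control shRNA cells on the y axis. Red points rose and blue points fell in parental cells, and the dashed line marks equal differences. Il11 stands above the line, and Clu and Krt16 stand below it.

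Promoters of the changed genes were then set against the ATAC peaks (accessible chromatin) and lamin B1 ChIP peaks of the same parental cells, which exist as 1 library per time point, so that shares are descriptions with 95% Wilson intervals for counting error only. The lists differ in length, with 9782, 10340 and 33811 ATAC peaks at 0, 8 and 24 h. Of 11143 tested genes placed on mm9, 60.1% had an ATAC peak within 500 bp of a transcription start site (TSS) in untreated cells, against 34.0% (30.3 to 37.9%) of the 589 genes that rose at least 2-fold and 46.4% (42.9 to 50.1%) of the 730 genes that fell at least 2-fold. At 24 h the shares were 88.5%, 75.4% (71.8 to 78.7%) and 72.6% (69.3 to 75.7%). When each list was cut to its 9782 highest scoring peaks, the 24 h shares were 54.96%, 33.3% and 38.1%, none of them above the untreated share. The promoter of Cebpa had an ATAC peak in all 3 lists. That of Col5a3 had one only in the 24 h list, where its score of 68.2 lies below those of the 23220 peaks that score at least 100, so that it is not among the peaks of the equal-length list.

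A lamin B1 peak overlapped the same promoter window in 29.8% of all tested genes in untreated cells, in 26.5% (23.1 to 30.2%) of those that rose at least 2-fold and in 24.1% (21.2 to 27.3%) of those that fell at least 2-fold. In the 24 h list the shares were 40.8%, 37.5% (33.7 to 41.5%) and 28.8% (25.6 to 32.2%). These lists differ in length, with 4645 lamin B1 peaks at 0 h and 7083 at 24 h. With the 4645 highest scoring peaks, the 24 h shares were 30.46% of all genes and 28.18% of those that rose. Of the 730 genes that fell, 146 (17.3 to 23.1%) then had a peak, against 176 in untreated cells. The higher shares at 24 h were thus seen with whole lists, and at equal length the genes that fell stood lower than untreated. Cebpa had a promoter lamin B1 peak at all 3 times, Snai1 in untreated cells and at 24 h, and Cdh1 at 24 h only. The untreated share of the genes that rose was not separated from that of all genes by its interval, whereas the genes that fell stood below all genes in both lists.

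Because peaks are less frequent at promoters of low genes, the shares were also read within bands of level, taken from the higher of the untreated and 24 h means. Between 1 and 10 FPKM, 48.6% of all 4115 genes had an ATAC promoter peak in untreated cells, against 19.1% of the 225 that rose and 26.6% of the 252 that fell. Between 10 and 100 FPKM the shares were 66.9% of 6068 genes, 41.6% of the 303 that rose and 59.3% of the 410 that fell. The lower ATAC shares of changed genes were thus present within these bands. A gene that rose stands in its band by its 24 h mean, so its untreated level was lower. For genes that rose, the bands therefore do not match level in untreated cells, and the part of level in their share was not tested. For lamin B1 at 24 h, the shares between 10 and 100 FPKM were 45.3% of all genes, 45.5% of those that rose and 31.95% of those that fell. Between 1 and 10 FPKM they were 34.4%, 27.6% and 24.2%, and above 100 FPKM 40.7%, 34.4% and 26.5%. The genes that fell thus stood below all genes in these 3 bands, and the genes that rose in 2 of them. A gene that fell stands in its band by its untreated mean, so its level at 24 h was lower. For genes that fell, the bands do not match level at 24 h, and the part of level in their share was not tested.

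Other short letters searched in the promoters of genes that rose and of those that fell at least 2-fold included the AP-1 letters TGANTCA, found in 8.97% and 10.2% against 5.07% of all, and the E-box CAGGTG of the SNAIL and ZEB factors, found in 17.0% and 20.7% against 16.4%. The SMAD letters CAGAC were in 51.8% and 48.6% against 47.1% of all, and the TEAD letters GGAATG in 12.6% and 14.6% against 12.01%.

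**Figure D5:**
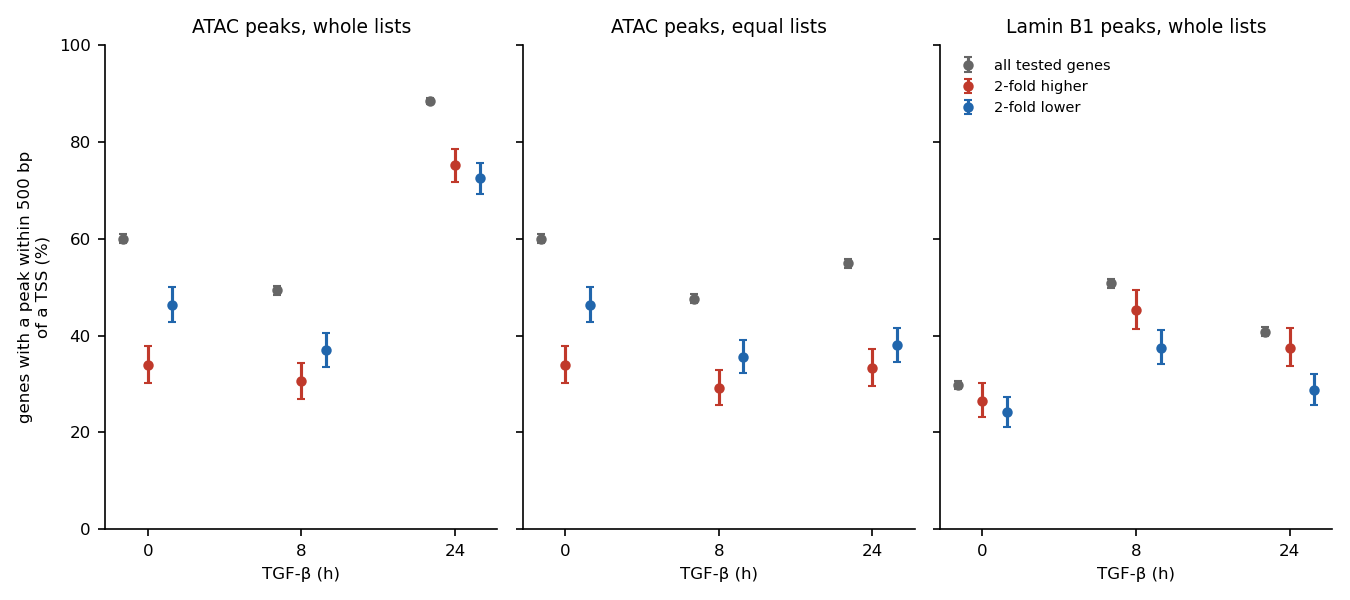
Percent of genes with a peak within 500 bp of a TSS (y axis) by hours of TGF-β (x axis) for all 11143 placed genes, the 589 that rose and the 730 that fell at least 2-fold, with 95% Wilson intervals as bars. The panels show ATAC peaks with whole lists, ATAC peaks with lists of equal length, and lamin B1 peaks with whole lists, which differ in length. The rise of the ATAC shares to 88.5%, 75.4% and 72.6% at 24 h is seen with whole lists and not with lists of equal length.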

How the data were processed

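The RNA-seq data cover parental NMuMG cells without TGF-β and after 8 h and 24 h of it, in 2 libraries each. The submitters' processing notes name Bowtie, TopHat, Cufflinks and the mm9 build. The authors deposited FPKM per gene symbol, without read counts, so the number of reads is unknown and its part in the precision cannot be given. A rough relative depth was taken from the commonest ratio of the lowest values between columns. It ran from 0.93 to 1.16 times that of the first untreated column. The parental table has no header, and the times of its columns were read from the table's name. The peak lists deposited by the authors carry a score per peak and were made per time point from 1 library each. Values were taken as log2(FPKM + 1), genes reaching 1 FPKM in 2 or more of 6 columns were kept, and the 6 columns were fitted with limma 3.58.1 in R 4.3.3 (eBayes with a trend), after a test on simulated data. The 12 columns of the shRNA table, also deposited as FPKM, were fitted separately. GENCODE M1 gave the mm9 positions of promoters, and 10703 symbols matched directly and 440 through an older symbol. Sequences came from the RefSeq promoter table on GRCm38.p6, which held 9037 of the tested genes. p-values measure the spread between libraries of a time point.

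Members and gene lists were chosen with earlier results of these data known. Named genes were, per list, the 4 with the largest difference among those reaching 5 FPKM, then the 15 largest called rises and falls whose columns do not overlap, the 5 largest FPKM gains and losses, and 14 EMT genes; symbols of short and mitochondrial RNA were left out of the rises, falls, gains and losses. Krt8, Krt18, Cdh11, Col1a1, Pcolce, Tgfb1, Tgfb2, Tgfb3, Tgfbr1, Tgfbr2, Id3, Cdkn1a, Cdkn2b, Ccnd1, Myc, Areg, Erbb3 and Foxj1 were named after their values were seen. A single item of the named genes is not reported here.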

Additional observations from a re-analysis of the deposited data

Results flagged for a closer look

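Insig1, the sterol-dependent brake of cholesterol synthesis, was called lower in parental cells and not called in control shRNA cells, where its columns were separated in the other direction. In parental cells all 24 h columns (16.5 and 16.1 FPKM) lay below the untreated columns (30.4 and 29.7), a difference of -0.84, whereas in control shRNA cells both 24 h columns (15.8 and 17.1 FPKM) lay above the untreated columns (15.3 and 15.5). The difference in control shRNA cells, 0.085, was not called (limma adjusted p = 0.474). The difference between the 2 sets of cells was not tested.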

How the results depend on the processing

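The counts of called genes and of genes changed at least 2-fold stayed within 1.5 times their value under every alternative run (constant, filters, scaling, samples in the fit, variance model, each column left out), no list median changed sign, and no named gene changed direction. Vim lost its call with quantile normalization (-0.011) and without the second 24 h column (-0.19), and the ribosomal protein genes went from 0 higher and 47 lower to 16 higher and 16 lower with quantile normalization, a list whose direction thus depends on the scaling. FPKM carries no read counts, and 2 libraries per time point limit the precision. Differences in promoter share from all tested genes depended on the peak lists, and the cause was not tested. With peaks scoring at least 100, the ATAC difference at 0 h went from -26.1 to -18.67 percentage points for genes that rose and from -13.62 to -7.4 for genes that fell, that at 24 h from -13.13 to -19.69 and from -15.91 to -19.74, and the lamin B1 difference of genes that fell from -5.68 to -2.42 at 0 h and from -12.07 to -5.36 at 24 h. For ATAC at 24 h and genes that rose it was -21.68 with lists of equal length and -9.57 within 2500 bp of a TSS. No paired analysis was possible because the parental columns carry no replicate number. In the shRNA table, same-numbered libraries of untreated and 24 h control shRNA cells did not deviate together (r = 0.023). Over all pairs of groups, 2 of 15 had r above 0.1, and the highest was 0.37, between control and lamin B1 shRNA cells at 24 h. With the replicate block 8042 genes were called in place of 8093.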
